A study of Mus musculus with 9 samples.

Results

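Proteasome genes were followed across 9 bulk RNA-seq libraries of mouse CD4+ T cells, from a study of regulatory T cells that arise beside tumor organoids. Members were the table rows whose gene symbol begins with Psma, Psmb, Psmc, Psmd, Psme, Psmf or Psmg followed by a digit, without pseudogene names and without the inducible subunits Psmb8 and Psmb9. This gave 46 of 14912 rows, namely 7 Psma, 9 Psmb, 7 Psmc, 14 Psmd and 9 Psme to Psmg names. Of these, 45 passed the filter on low values (a normalized count of at least 5 in at least 3 libraries) and 43 had a mean of at least 100. One name, Psmc3ip, matches the pattern but belongs to a homologous recombination factor and to no proteasome part.

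All cells came from the strain B6.Cg-Foxp3tm2(EGFP)Tch/J, hemizygous for Foxp3 tm2Tch, in which eGFP reports the regulatory T cell factor Foxp3. The first group of 3 libraries held eGFP-negative CD4+ cells taken at day 0, before culture. The second held eGFP-positive cells (TGFβ-iTreg, induced regulatory T cells) taken at day 5 from cultures with TGFβ at 10 ng/ml, IL-2 at 300 U/ml, and anti-CD3 and anti-CD28 at 1 µg/ml each. The third held eGFP-positive cells (mTO-iTreg) taken at day 5 from co-culture with murine colorectal cancer tumor-organoids, with IL-2 at 20 U/ml and both antibodies at 1 µg/ml, and no added TGFβ named. Day 0 therefore differs from both induced groups at once in Foxp3 reporter state, day, medium, IL-2, and anti-CD3 and anti-CD28. It differs from them also in TGFβ or co-culture. The induced groups share reporter state, day and antibody doses and differ at once in medium, IL-2 dose, TGFβ and co-culture. Within each comparison the effects of these cannot be told apart. Library codes take another form in the mTO-iTreg group than in the other 2 groups, so any difference in library handling and the co-culture cannot be told apart either. Nothing in the labels says whether the 3 libraries of a group came from separate animals or cultures, so p-values measure the spread between these libraries, which may be technical.

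The proteasome is the barrel-shaped protease that degrades ubiquitin-tagged proteins. Its core has outer rings of alpha subunits (Psma), which gate the entrance, and inner rings of beta subunits (Psmb), some of which carry the proteolytic sites. A regulatory cap binds the core. Its base holds the ring of unfolding ATPases (Psmc), large scaffold subunits and a ubiquitin receptor. Its lid holds most other Psmd subunits, including a deubiquitinase, and some Psmd names encode chaperones of the base. Other names encode alternative caps (Psme), an inhibitor (Psmf1) and chaperones that build the core (Psmg). Lymphocytes also make inducible beta subunits that replace the constitutive catalytic ones and change which peptides reach class I molecules, and T cell activation uses proteasomes to degrade the inhibitor of NF-κB.

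Proteasome genes are known to share regulators, among them Nfe2l1, which binds antioxidant response elements (ARE), and factors of the ETS family. RefSeq promoter windows (GRCm38.p6, 250 bases before to 50 bases after the start) were matched for 39 of the 46 members. The windows were searched on both strands for the ARE core TGACNNNGC, the CCAAT box, the GC box GGGCGG and the E-box CACGTG. The ETS core CCGGAAG, the CRE TGACGTCA and the TATA box TATAAA were searched in the same way. The ARE core and the CRE share the start TGAC and differ after it. A gene with several windows was counted once, as having a motif if any of its windows held it. The ETS core was present in 15 of 39 members (38.5%), beside 9.93% of all 27025 genes with a window and 21.9% of the 8262 tested here. The 15 include Psmc3ip, which is no proteasome part, and the 39 include also Psmb11, which did not pass the filter. The ARE core was present in 6 (15.4%), beside 14% of all genes with a window and 17.3% of those tested. The GC box was present in 22 (56.4%, beside 38.2% and 69.7%), the CCAAT box in 14 (35.9%, beside 41.1% and 43.5%), the E-box in 4 (10.3%, beside 8.09% and 12.1%) and the TATA box in 3 (7.69%, beside 15.7% and 8.07%). The CRE letters were in no member window, beside 2.03% and 3.85%. A match describes letters only. The 80 bases directly before the start are shown for 7 members that changed in at least 1 comparison below, with the ARE core in capitals for the catalytic subunits Psmb5 (chr14:54617996-54618075, minus strand) and Psmb6 (chr11:70525277-70525356, plus strand). The ETS core, as written or as its reverse complement, is in capitals for the ATPase Psmc2 (chr5:21786667-21786746, plus), the lid subunits Psmd11 (chr11:80428535-80428614, plus), Psmd12 (chr11:107479448-107479527, plus) and Psmd6 (chr14:14120946-14121025, minus), and the scaffold Psmd2 (chr16:20651572-20651651, plus).
Psmb5: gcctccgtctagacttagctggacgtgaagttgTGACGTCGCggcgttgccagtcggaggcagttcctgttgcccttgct
Psmb6: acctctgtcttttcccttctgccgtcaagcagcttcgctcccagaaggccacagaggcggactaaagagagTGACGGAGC
Psmc2: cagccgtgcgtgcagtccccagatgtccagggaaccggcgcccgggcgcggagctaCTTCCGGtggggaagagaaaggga
Psmd11: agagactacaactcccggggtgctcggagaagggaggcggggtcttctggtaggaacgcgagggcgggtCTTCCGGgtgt
Psmd12: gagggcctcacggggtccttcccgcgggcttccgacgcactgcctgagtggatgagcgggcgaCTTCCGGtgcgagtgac
Psmd2: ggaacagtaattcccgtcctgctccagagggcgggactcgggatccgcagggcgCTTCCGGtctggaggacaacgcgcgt
Psmd6: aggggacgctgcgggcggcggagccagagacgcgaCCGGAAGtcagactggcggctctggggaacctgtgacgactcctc
These sequences are shown as examples of members that carry a motif and were called in at least 1 comparison. Psmc2 has another start upstream, whose window is not shown. Of the 15 members with an ETS core, 7, among them Psmc3ip, were called in none of the 3 comparisons. In mTO-iTreg cells against day 0, Psmc2, Psmc6, Psmd2 and Psmd11 were called higher and Psmd6 lower, 5 of 15, beside 33.9% of all tested rows called in either direction. In TGFβ-iTreg cells against day 0, Psmd2, Psmd12 and Psme3 were called higher, 3 of 15, beside 18.6% of all rows, and in mTO-iTreg against TGFβ-iTreg cells Psmd6, Psmd13 and Psme3 were called lower, 3 of 15, beside 26.6%. Of the 6 with an ARE core, Psmb6 and Psmc6 were called higher in mTO-iTreg cells than at day 0, Psmd12 higher in TGFβ-iTreg cells than at day 0 and Psmb5 lower in mTO-iTreg than in TGFβ-iTreg cells, and 2 were called in none.

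Library totals ran from 2267922 to 5328169 counts at day 0, from 2078223 to 9944952 in TGFβ-iTreg and from 7551177 to 7969853 in mTO-iTreg libraries. One count was worth 0.494 to 2.69 normalized counts, the unit of all levels given here. Since the libraries count 3′ tags, levels are compared between groups and not between genes. Mitochondrial genes took 17.4 to 19.6% of counts at day 0, 10.4 to 12.3% in TGFβ-iTreg and 12.2 to 12.5% in mTO-iTreg libraries. Of the 10 T cell markers listed, 8 were rows of the table and all were detected in every group; their summed level was 32483 to 34492, 21508 to 22234 and 23748 to 28100 in that order of groups. Of 13 epithelial markers 6 were rows, with Krt8, Krt19 and Krt20 not among them. Their sums were 18.8 to 24.3, 135 to 141 and 43.7 to 124, with Vil1 at 0 in the day 0 group, Krt18 at 0 in TGFβ-iTreg and Cldn4 at 0 in mTO-iTreg libraries. Epcam and Cdh1 made up most of the TGFβ-iTreg sums. Epcam was at 5.263, 18.82 and 7.385 at day 0, at 93.46, 112.6 and 74.11 in TGFβ-iTreg and at 21.14, 34.12 and 89.01 in mTO-iTreg libraries. Cdh1 was at 34.43, 25.09 and 52.86 in TGFβ-iTreg and at 12.96, 9.305 and 20.59 in mTO-iTreg libraries. Lgals4 was at 3.509, 0 and 11.6, then 0, 3.391 and 0.494, then 9.549, 9.925 and 9.964. Of 12 myeloid and antigen-presenting markers 9 were rows, with sums of 1403 to 8371, 861 to 1154 and 2336 to 3430. The day 0 library 3 stood apart at 8371, mostly class II genes. In mTO-iTreg libraries most of the sum was H2-Eb1 (2331, 1410 and 1817). Fcer1g (8.87, 0 and 0), Tyrobp (4.09, 1.86 and 0) and H2-Aa (189.6, 56.45 and 32.55) lay there below every day 0 library. Cd68 (10.91, 6.824 and 8.635 against 12.28, 8.064 and 7.385 at day 0), Cst3, Cd74, H2-Ab1 and H2-Eb1 overlapped day 0. Itgax was at 0 in all mTO-iTreg libraries and in day 0 library 2. Of 6 B cell markers 4 were rows, with sums of 10.5 to 57, 30.6 to 69.2 and 61.1 to 104. Of 7 CD8 and NK cell markers 6 were rows, with sums of 379 to 748, 243 to 369 and 600 to 1377 and Klrb1c at 0 in the mTO-iTreg group. The mTO-iTreg sums were mostly Eomes (685.5, 1243 and 494.9). Klrd1 was at 443.9, 198.9 and 436.8 at day 0 and at 4.77, 3.72 and 2.66 in mTO-iTreg libraries. Cd8b1 also lay below day 0 there, and Cd8a and Gzma overlapped day 0. The part of these differences in the proteasome results was not tested, and in bulk RNA fewer cells of a type and less RNA per cell cannot be told apart.

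As a share of all counts, the 46 members made up 0.401, 0.403 and 0.414% in the day 0 libraries, 0.633, 0.628 and 0.666% in the TGFβ-iTreg libraries and 0.472, 0.51 and 0.511% in the mTO-iTreg libraries. The 3 groups did not overlap. Leaving mitochondrial counts out of the total gave 0.498, 0.496 and 0.501% at day 0, 0.722, 0.701 and 0.757% in TGFβ-iTreg, and 0.538, 0.581 and 0.584% in mTO-iTreg cells, in the same order. On the deposited scale the summed level was 24132, 24545 and 23255 at day 0 and 32344, 30745 and 32734 in TGFβ-iTreg cells. It was 24318, 25239 and 26019 in mTO-iTreg cells, which overlapped day 0. The mTO-iTreg group therefore stood above day 0 as a share of counts and overlapped it as a sum on the deposited scale, whose size factors give day 0 libraries larger totals. The sums of the Psma, Psmb, Psmc, Psmd and Psme to Psmg names were each higher in all 3 TGFβ-iTreg libraries than in any day 0 library. The plot of levels by library shows the same for each set.

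**Figure D1:**
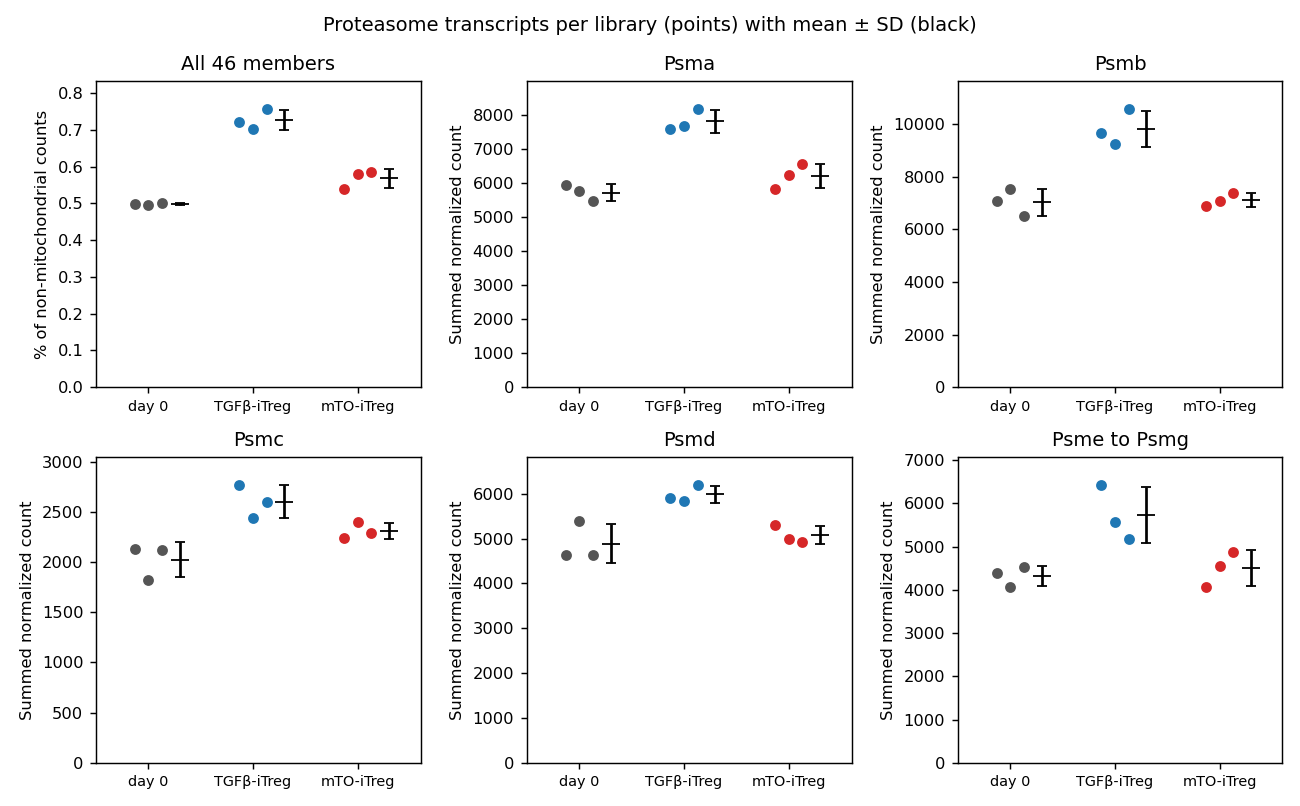
The share of non-mitochondrial counts taken by the 46 members (top left, percent) and the summed normalized count of each set of names (other panels), with one point per library, and the mean ± SD of 3 libraries in black. TGFβ-iTreg libraries lie between 0.701 and 0.757% in the first panel, above mTO-iTreg libraries (0.538 to 0.584%) and day 0 libraries (0.496 to 0.501%).

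Against day 0, TGFβ-iTreg cells had 15 of the 45 tested members higher, among them the alpha subunit Psma4, the beta subunits Psmb4 and Psmb7, the lid subunits Psmd8 and Psmd12 and the cap subunit Psme3, and 0 lower (limma, adjusted p under 0.05). Over all 10983 tested rows, 9.78% were called higher and 8.8% lower, and among the 5185 rows with a mean of at least 100 these shares were 13.7% and 13.2%. The log2 change was positive for 38 members and had a median of 0.396, beside −0.015 over all tested rows. All 23 members with an unadjusted p under 0.05 were higher, and 3500 of the 10983 tested rows had such a p in either direction. In 27 members all 3 TGFβ-iTreg libraries lay above all 3 day 0 libraries, and in no member below, beside 18% and 17.8% of all rows. By set, 4 of 7 Psma, 4 of 8 Psmb, 1 of 7 Psmc, 4 of 14 Psmd and 2 of 9 Psme to Psmg names were called, all higher. Most of these calls were lost in at least 1 fit that left out a single library. Without day 0 library 1, 2 or 3 the counts called higher were 10, 9 and 8, and without TGFβ-iTreg library 1, 2 or 3 they were 7, 7 and 6, where 6.3 to 9.33% of all rows were called higher. The calls lost had adjusted p-values of 0.05 to 0.16; Psma4, Psmb4 and Psmd8 remained called without any 1 library. Psmc3 and Psmd7 were lost without any 1 of these 6, and Psmb1 without any of them but day 0 library 2. Psma1 was lost without day 0 library 2 or 3 or TGFβ-iTreg library 1 or 3, Psma2 without day 0 library 2 or 3 or TGFβ-iTreg library 2 or 3, and Psma5 without day 0 library 3 or TGFβ-iTreg library 2 or 3. Psmb7 was lost without day 0 library 1 or 2 or TGFβ-iTreg library 1 or 2, Psmd12 without day 0 library 2 or any TGFβ-iTreg library, and Psmd2 without day 0 library 1 or 3 or TGFβ-iTreg library 2 or 3. Psme1 and Psme3 were lost without day 0 library 2 or TGFβ-iTreg library 1, and Psmb3 without TGFβ-iTreg library 3. Psmc3 was also lost without mTO-iTreg library 1 or 2, and Psmb1 without mTO-iTreg library 1, which enter through the shared estimate of the spread. Psma7 and Psmd13 were called in addition without day 0 library 2.

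Against the same day 0 libraries, mTO-iTreg cells had 11 members higher and 4 lower (limma, adjusted p under 0.05). Scaling altered this split, and the shares of all tested rows with it. Equal library totals gave 16 higher and 1 lower (25% and 10.4% of all rows). Scaling that left out mitochondrial genes and the ribosomal RNA gene Rn45s gave 13 and 1 (22.4% and 12.1%). TMM factors gave 8 and 5 (17.8% and 16.2%). Over all tested rows 19.4% were called higher and 14.5% lower, and among rows with a mean of at least 100 the shares were 23% and 23.2%, so the members' share of higher calls was near that of all rows. Their median log2 change was 0.099, beside 0.093 over all tested rows. The 11 higher members were the alpha subunit Psma4, the beta subunits Psmb2, Psmb6 and Psmb7, the ATPases Psmc2 and Psmc6, the cap subunits Psmd2, Psmd7, Psmd8 and Psmd11, and the activator Psme1. The 4 lower members were the beta subunit Psmb1, the lid subunits Psmd6 and Psmd14 and the chaperone Psmd5. In 15 members all 3 mTO-iTreg libraries lay above all 3 day 0 libraries and in 3 below, beside 25.8% and 20.3% of all rows. Leaving out 1 library at a time gave 6 to 10 higher and 1 to 4 lower members, beside 14.8 to 19.7% and 12.3 to 14.8% of all rows. Psma4, Psmb6, Psmb7, Psmc2, Psme1 and Psmd5 remained called in each case. The most calls, 7, were lost without mTO-iTreg library 3 (Psmb2, Psmc6, Psmd6, Psmd7, Psmd8, Psmd11 and Psmd14, adjusted p = 0.053 to 0.18). Without day 0 library 1, Psmb2, Psmd2, Psmd7, Psmd8 and Psmd11 were lost (adjusted p = 0.05 to 0.12), without day 0 library 2, Psmb1, Psmc6, Psmd6, Psmd7 and Psmd14 (0.052 to 0.14), and without day 0 library 3, Psmd6, Psmd7, Psmd8, Psmd11 and Psmd14 (0.063 to 0.13). Without mTO-iTreg library 1, Psmd2, Psmd6, Psmd8 and Psmd14 were lost (0.057 to 0.13), without mTO-iTreg library 2, Psmd7, Psmd11 and Psmd14 (0.071 to 0.14), and without any 1 TGFβ-iTreg library, Psmd6, Psmd7 and Psmd14 (0.05 to 0.056). Psmc3ip was called in addition without day 0 library 3, Psme3 without mTO-iTreg library 2 and Psme2 without mTO-iTreg library 3.

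The 2 kinds of induced cell were compared directly. In mTO-iTreg cells 13 members were lower than in TGFβ-iTreg cells and 1, the catalytic subunit Psmb7, was higher (limma, adjusted p under 0.05). Over all tested rows 11.8% were called lower and 14.9% higher, and among rows with a mean of at least 100 these shares were 20% and 18.9%. The median log2 difference was −0.216 over the members, beside 0.126 over all tested rows. In 18 members all 3 mTO-iTreg libraries lay below all 3 TGFβ-iTreg libraries and in 5 above, beside 18.7% and 25.9% of all rows. The 13 lower members were Psma2 and Psma5, Psmb1, Psmb3, Psmb4 and Psmb5, the ATPases Psmc3 and Psmc5, Psmd5, Psmd6 and Psmd13, and the activators Psme2 and Psme3. Of these, 8 (Psma2, Psmb1, Psmb4, Psmc3, Psmd5, Psmd6, Psme2 and Psme3) were called under all 23 alternatives. Psmd13 was lost without any 1 library of these 2 groups. Psmc5 was lost without TGFβ-iTreg library 1 or 3 or mTO-iTreg library 2 or 3, Psmb5 without TGFβ-iTreg library 3 or mTO-iTreg library 2 or 3, and Psmb3 without TGFβ-iTreg library 2 or 3 or mTO-iTreg library 1. Psmb7 was lost without any of these libraries but mTO-iTreg library 2, and also without day 0 library 1, where its adjusted p was 0.05. Over these losses the adjusted p-values were 0.05 to 0.17. Psmb10 was called in addition without TGFβ-iTreg library 2, Psmd11 without TGFβ-iTreg library 3 and Psmd12 without day 0 library 2.

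For the 31 constitutive subunits of core and cap tested, the log2 changes in TGFβ-iTreg cells against day 0 had an SD of 0.194 and spanned 0.800, with a median SE per gene of 0.162. In mTO-iTreg cells against day 0 their SD was 0.446 and their span 2.113 with the same median SE. Over all tested rows the SD of the log2 changes was 1.146 and 1.455 in these 2 comparisons, so it was also larger in mTO-iTreg cells; the difference in spread was not tested. Of the 45 members, 18 were called in none of the 3 comparisons, beside 53.3% of all tested rows, and 1, Psmb7, was called higher in all 3, beside 1.13%.

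**Figure D2:**
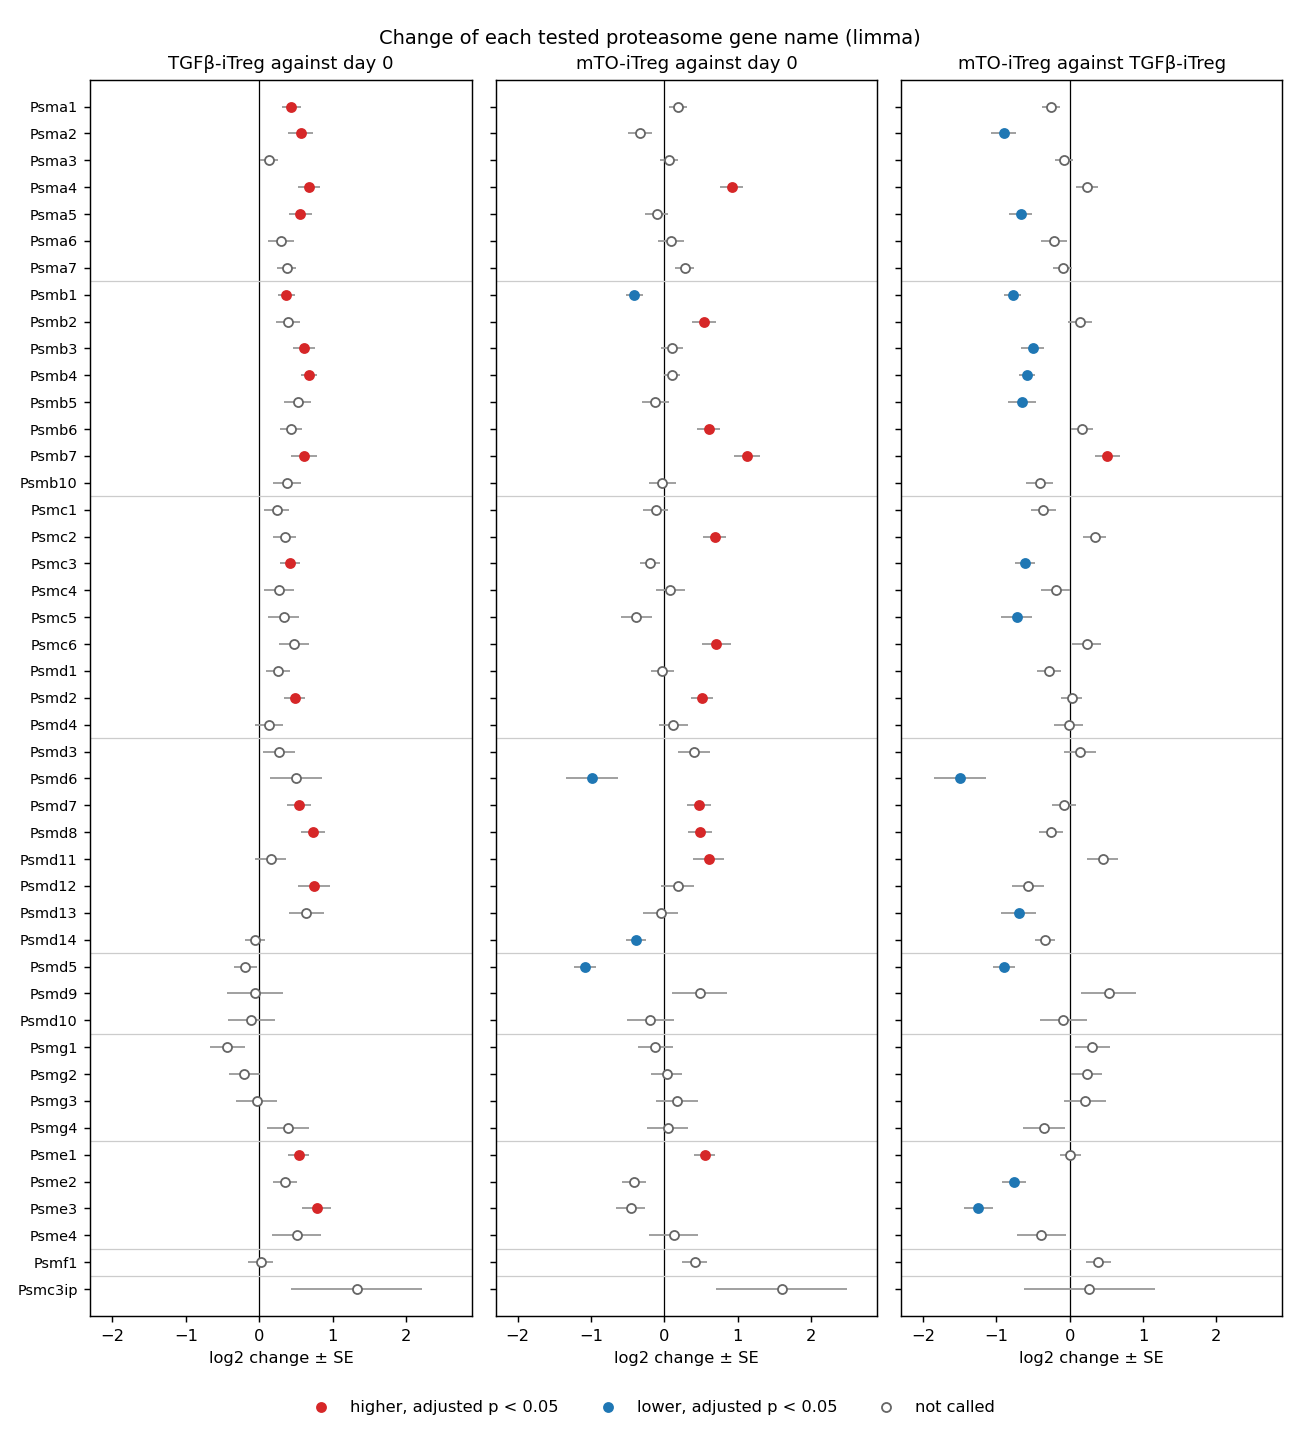
Log2 change ± SE of each of the 45 tested members in the 3 comparisons, ordered from the alpha ring at the top through the beta ring, the base, the lid, the chaperones of the cap and of the core, the alternative caps, the inhibitor Psmf1 and the unrelated Psmc3ip; filled points passed adjusted p under 0.05 (red higher, blue lower). In the left panel 15 points are red and 0 blue; in the middle panel 11 are red and 4 blue; in the right panel 1 is red and 13 are blue.

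The alpha subunits form the outer rings whose tails close the channel. Psma4 (chr9:54950790-54958030) was at 552.6, 481.2 and 583.4 at day 0, at 1021, 699.2 and 898.7 in TGFβ-iTreg and at 1027, 998.8 and 1024 in mTO-iTreg cells. Both induced groups lay above day 0 and overlapped each other. The log2 change was 0.68 ± 0.15 (SE; adjusted p = 0.0076) in TGFβ-iTreg and 0.92 ± 0.15 (adjusted p = 0.00047) in mTO-iTreg cells. Psma2 (chr13:14613240-14674236) was at 1695, 1269 and 1374 at day 0, at 1813, 2324 and 2273 in TGFβ-iTreg and at 907.1, 1195 and 1359 in mTO-iTreg cells. TGFβ-iTreg libraries were the highest, and mTO-iTreg overlapped day 0. Psma2 was higher in TGFβ-iTreg cells than at day 0 (log2 change 0.56 ± 0.17, adjusted p = 0.032) and lower in mTO-iTreg than in TGFβ-iTreg cells (−0.90 ± 0.17, adjusted p = 0.0015). Psma5 followed the same order, with means ± SD of 772.9 ± 113.5, 1135 ± 103.2 and 718.3 ± 122.4 (n = 3 each); it was higher in TGFβ-iTreg cells than at day 0 (adjusted p = 0.026) and lower in mTO-iTreg than in TGFβ-iTreg cells (adjusted p = 0.0073). Psma1 was called only against day 0 in TGFβ-iTreg cells, 656.5 ± 39.37 against 890.9 ± 47.40 (adjusted p = 0.026). Psma3, Psma6 and Psma7 were not called in any comparison. Psma7, whose subunit lies in the ring beside Psma4, had means of 923.2, 1194 and 1115, with all 3 libraries of each induced group above day 0 (adjusted p = 0.06 and 0.11).

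The beta ring carries the active sites in Psmb5 (chymotrypsin-like), Psmb6 (caspase-like) and Psmb7 (trypsin-like). Psmb7 (chr2:38588036-38644087) was at 208.8, 209.7 and 232.1 at day 0, at 359.1, 362.1 and 278.1 in TGFβ-iTreg and at 519, 418.7 and 485.6 in mTO-iTreg cells, and no groups overlapped. It was higher in TGFβ-iTreg cells (log2 change 0.61 ± 0.17, adjusted p = 0.028) and in mTO-iTreg cells (1.12 ± 0.17, adjusted p = 0.00027) than at day 0, and higher in mTO-iTreg than in TGFβ-iTreg cells (0.51 ± 0.17, adjusted p = 0.044). The end of its transcript lies opposite an exon of Nek6, whose mean was 7.96, 61.6 and 28.0 in the 3 groups; how strand was treated in counting is not given in the sources used here. Psmb6 was at 282.5, 338.7 and 356.6 at day 0, at 442.7, 419.8 and 453 in TGFβ-iTreg and at 484.3, 470.2 and 524.1 in mTO-iTreg cells, each group lying above the one before it. It was called in mTO-iTreg cells against day 0 (0.60 ± 0.15, adjusted p = 0.0082) and missed the threshold in TGFβ-iTreg cells (0.43 ± 0.15, adjusted p = 0.067). Psmb5 was at 389.5, 379 and 308.1 at day 0, at 479.6, 483.5 and 584.5 in TGFβ-iTreg and at 407.2, 268.6 and 320.2 in mTO-iTreg cells. Psmb5 was lower in mTO-iTreg than in TGFβ-iTreg cells (−0.65 ± 0.19, adjusted p = 0.020) and had an adjusted p of 0.068 in TGFβ-iTreg cells against day 0. The 3 catalytic names thus took 3 different call patterns, but differences between the genes were not tested. In TGFβ-iTreg cells the log2 changes of Psmb5, Psmb6 and Psmb7 from day 0 were 0.52, 0.43 and 0.61, and only the last passed the threshold. The Psmb7 call between the induced groups held in 10 of 23 alternatives.

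Among the structural beta subunits, Psmb1 (chr17:15475021-15499751) was the only member called in opposite directions against day 0. It was at 2905, 3255 and 2595 at day 0, at 3630, 3458 and 4213 in TGFβ-iTreg and at 2228, 2142 and 2198 in mTO-iTreg cells, with no overlap between groups. Its log2 change was 0.37 ± 0.12 in TGFβ-iTreg cells (adjusted p = 0.044) and −0.41 ± 0.12 in mTO-iTreg cells (adjusted p = 0.016), and the difference between both was −0.78 ± 0.12 (adjusted p = 0.00033). Over 23 alternatives the adjusted p reached 0.2 for the first, 0.3 for the second and 0.018 for the third. Psmb4 was at 1288, 1274 and 1164 at day 0, at 2054, 1974 and 1926 in TGFβ-iTreg and at 1335, 1319 and 1336 in mTO-iTreg cells. Its rise in TGFβ-iTreg cells (0.68 ± 0.11, adjusted p = 0.00082) was the only call of that comparison that held under all 23 alternatives, with an adjusted p of at most 0.027. Psmb4 was lower in mTO-iTreg than in TGFβ-iTreg cells (−0.58 ± 0.11, adjusted p = 0.0016). Psmb3 had means ± SD of 942.5 ± 45.27, 1439 ± 149.1 and 1022 ± 190.7, higher in TGFβ-iTreg cells than at day 0 (adjusted p = 0.013) and lower in mTO-iTreg than in TGFβ-iTreg cells (adjusted p = 0.024). Psmb2 had means of 585.2, 780.6 and 856.1 and was called in mTO-iTreg cells against day 0 (adjusted p = 0.020). Psma5, Psmb3, Psmb5, Psmd2 and Psme1 have processed copies elsewhere in the genome that are at least 95% identical over 100 or more of their last 300 bases and are no rows of the table, so reads of these copies may be counted with them.

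Psmb10 encodes the inducible subunit that takes the place of Psmb7. It was at 422.8, 516.1 and 374.5 at day 0, at 698.5, 448.3 and 577.5 in TGFβ-iTreg and at 390.8, 463.4 and 423.8 in mTO-iTreg cells, all groups overlapping, and was called in no comparison (adjusted p = 0.18, 0.92 and 0.12). The other inducible subunits, Psmb8 and Psmb9, lie outside the rule. Psmb8 had means of 1368, 1900 and 2286 and was called higher in TGFβ-iTreg (log2 change 0.49 ± 0.16, adjusted p = 0.046, reaching 0.36 over the alternatives) and in mTO-iTreg cells (0.77 ± 0.16, adjusted p = 0.0021). Psmb9 was called higher in mTO-iTreg cells against day 0 (0.49 ± 0.16, adjusted p = 0.030) and not in TGFβ-iTreg cells (0.30 ± 0.16, adjusted p = 0.23). Neither was called between the induced groups (adjusted p = 0.22 and 0.39). Psmb11, the beta subunit of thymic epithelium, had 4, 0 and 1 counts at day 0, 0 in every TGFβ-iTreg library and 1, 1 and 6 in mTO-iTreg libraries; it was not tested, and its last 300 bases hold a stretch that many other genes share.

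The ATPases Psmc1 to Psmc6 form the ring that unfolds substrates. Psmc2 was at 310.5, 330.6 and 367.1 at day 0, at 432.9, 428.6 and 419 in TGFβ-iTreg and at 475.4, 625.3 and 531.4 in mTO-iTreg cells, with no overlap. It was called in mTO-iTreg cells against day 0 (log2 change 0.69 ± 0.16, adjusted p = 0.0041) and not in TGFβ-iTreg cells (0.35 ± 0.16, adjusted p = 0.15). Psmc6 was at 340.4, 212.4 and 337.6 at day 0, at 462.4, 366.2 and 388.8 in TGFβ-iTreg and at 472.7, 433.6 and 522.1 in mTO-iTreg cells, and was likewise called in mTO-iTreg cells only (0.71 ± 0.20, adjusted p = 0.014). The difference between the induced groups was not called for Psmc2 or Psmc6 (adjusted p = 0.13 and 0.42), so a difference between them was not shown. Psmc3 and Psmc5 took the other course. Psmc3 was at 642.1, 567.2 and 664.6, then 897.8, 788.7 and 821.6, then 508.8, 552.1 and 577.2; it was higher in TGFβ-iTreg cells than at day 0 (0.42 ± 0.14, adjusted p = 0.045) and lower in mTO-iTreg than in TGFβ-iTreg cells (−0.61 ± 0.14, adjusted p = 0.0046). Psmc5 was at 231.6, 161.3 and 211, then 248.4, 231.3 and 276.2, then 176, 141.4 and 141.5, and was lower in mTO-iTreg than in TGFβ-iTreg cells (−0.72 ± 0.21, adjusted p = 0.022). Psmc1 (means 271.1, 320.8 and 250.3) and Psmc4 (281.8, 339.5 and 300.2) were called in no comparison. Psmc3ip, the name that is no subunit, had 1 to 120 counts per library and was not called either. Its last 300 bases lie opposite an exon of Mlx, whose means were 407.9, 330.8 and 248.1. Those of Psmc3 lie partly opposite Slc39a13, whose means were 19.4, 20.6 and 36.0.

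The large scaffold subunits and the ubiquitin receptor complete the base. Psmd2 was at 417.6, 513.4 and 463.1 at day 0, at 590.3, 703.3 and 657.6 in TGFβ-iTreg and at 701.8, 597.4 and 685.5 in mTO-iTreg cells. Both induced groups lay above day 0 and overlapped each other, with log2 changes of 0.49 ± 0.15 (adjusted p = 0.034) and 0.51 ± 0.15 (adjusted p = 0.016). The other scaffold, Psmd1, had means of 472.6, 560.5 and 465.4, and the receptor Psmd4 320.8, 351.4 and 347.7; neither was called.

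In the lid, Psmd8 and Psmd7 were higher in both induced groups. Psmd8 was at 528.1, 688.1 and 612.9 at day 0, at 1134, 899.9 and 1016 in TGFβ-iTreg (log2 change 0.74 ± 0.16, adjusted p = 0.0065) and at 932.4, 695.4 and 941.3 in mTO-iTreg cells (0.48 ± 0.16, adjusted p = 0.033). Psmd7 had means ± SD of 303.4 ± 28.97, 440.2 ± 16.43 and 420.5 ± 57.45 (adjusted p = 0.034 and 0.040 against day 0). The Psmd7 calls held in 14 of 23 alternatives in TGFβ-iTreg cells and in 8 of 23 in mTO-iTreg cells. Psmd12 was at 166.7, 110.2 and 161.4, then 248.4, 224.5 and 253.9, then 183.5, 143.3 and 164.1, and was called in TGFβ-iTreg cells against day 0 (0.75 ± 0.22, adjusted p = 0.033). Psmd11 was at 296.5, 365.6 and 291.2, then 295.2, 301.8 and 492.1, then 414.7, 531 and 506.2. It was called in mTO-iTreg cells against day 0 (0.60 ± 0.21, adjusted p = 0.040), and TGFβ-iTreg library 3 lay apart from the other 2 of its group.

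Other lid subunits were lower in mTO-iTreg cells. Psmd6 (chr14:14112174-14120984) was at 205.3, 282.2 and 305.9 at day 0, at 334.5, 390 and 388.3 in TGFβ-iTreg and at 105, 270.5 and 78.4 in mTO-iTreg cells. The mTO-iTreg libraries all lay below TGFβ-iTreg (log2 difference −1.49 ± 0.35, adjusted p = 0.0067), whereas mTO-iTreg library 2 lay within the day 0 range, and the call against day 0 (−0.99 ± 0.35, adjusted p = 0.043) held in 9 of 23 alternatives. Psmd13 was lower in mTO-iTreg than in TGFβ-iTreg cells, 157.9 ± 21.62 against 255.7 ± 30.33 (adjusted p = 0.046), with 167.4 ± 50.61 at day 0; its exons overlap those of Sirt3 on the other strand, which had means of 14.8, 9.75 and 19.9. Psmd14, the deubiquitinase that removes ubiquitin chains from substrates, was at 728.1, 900.5 and 825 at day 0, at 826.4, 722.3 and 813.2 in TGFβ-iTreg and at 590, 631.5 and 649.7 in mTO-iTreg cells. It was lower in mTO-iTreg cells than at day 0 (−0.39 ± 0.14, adjusted p = 0.041), a call that held in 7 of 23 alternatives. Psmd3 was called in no comparison (means 174.8, 207.3 and 227.8).

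Of 7 names of assembly chaperones (Psmd5, Psmd9, Psmd10 and Psmg1 to Psmg4) none was called in TGFβ-iTreg cells against day 0 (limma), beside 18.6% of all tested rows called in either direction. None had an unadjusted p under 0.05, beside 3500 of 10983 tested rows. A negative log2 change, from −0.44 to −0.03, was found for 6 of the 7, beside 50.8% of all tested rows. Psmd5 (chr2:34849734-34874968), a chaperone of the base that also restrains its union with the core, was at 633.4, 607.5 and 592.9 at day 0, at 464.9, 633.4 and 525.2 in TGFβ-iTreg and at 295.3, 289.1 and 278.3 in mTO-iTreg cells. The mTO-iTreg libraries lay below all others. Psmd5 was lower there than at day 0 (log2 change −1.08 ± 0.15, adjusted p = 0.00013) and than in TGFβ-iTreg cells (−0.90 ± 0.15, adjusted p = 0.00085), and both calls held in all 23 alternatives, with adjusted p-values of at most 0.0036 and 0.011. Psmd9 had means of 47.2, 44.2 and 65.3 and Psmd10, also called gankyrin, 165.6, 152.1 and 156.7, with mTO-iTreg library 1 at 255.8 and the other 2 at 114.1 and 100.3. The core chaperones had means of 186, 136.7 and 168.3 (Psmg1), 437.3, 379.1 and 444.3 (Psmg2), 111.5, 110.2 and 129.4 (Psmg3) and 222.3, 301.6 and 240.6 (Psmg4), and none was called.

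Alternative caps open the core without ATP. Psme1 and Psme2 encode the 2 subunits of the interferon-inducible activator, and their calls differed in mTO-iTreg cells. Psme1 (chr14:55578123-55581529) was at 1183, 932.8 and 1095 at day 0, at 1808, 1526 and 1338 in TGFβ-iTreg and at 1496, 1472 and 1709 in mTO-iTreg cells. Both induced groups lay above day 0 (log2 changes 0.54 ± 0.14, adjusted p = 0.018, and 0.55 ± 0.14, adjusted p = 0.0091) and differed from each other by 0.01 ± 0.14 (adjusted p = 0.97). Its exons overlap by 14 bases those of Emc9 on the other strand, whose means were 106.4, 45.7 and 308.3. Psme2 (chr14:55587441-55591113) was at 1081, 1148 and 1014 at day 0, at 1478, 1164 and 1517 in TGFβ-iTreg and at 699.8, 741.9 and 1027 in mTO-iTreg cells. Psme2 was lower in mTO-iTreg than in TGFβ-iTreg cells (−0.76 ± 0.16, adjusted p = 0.0035) and was called in neither group against day 0 (adjusted p = 0.15 and 0.064). Over its last 300 bases Psme2 is 99% identical to Psme2b, which is no row of the table, and how the authors' counting treated reads of both is not given in the sources used here.

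Psme3 (chr11:101316213-101323537), the subunit of the nuclear activator, was at 810.5, 698.9 and 815.5 at day 0, at 1660, 1346 and 1066 in TGFβ-iTreg and at 451.5, 750 and 520.8 in mTO-iTreg cells. All TGFβ-iTreg libraries lay above day 0 (log2 change 0.79 ± 0.20, adjusted p = 0.014) and above mTO-iTreg, which was lower by −1.25 ± 0.20 on the log2 scale (adjusted p = 0.00046). Psme4 had means of 127.1, 175.1 and 138.1 and the inhibitor Psmf1 315.7, 319 and 419.6. Neither was called, although all 3 mTO-iTreg libraries of Psmf1 lay above both other groups (adjusted p = 0.072 and 0.099).

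**Figure D3:**
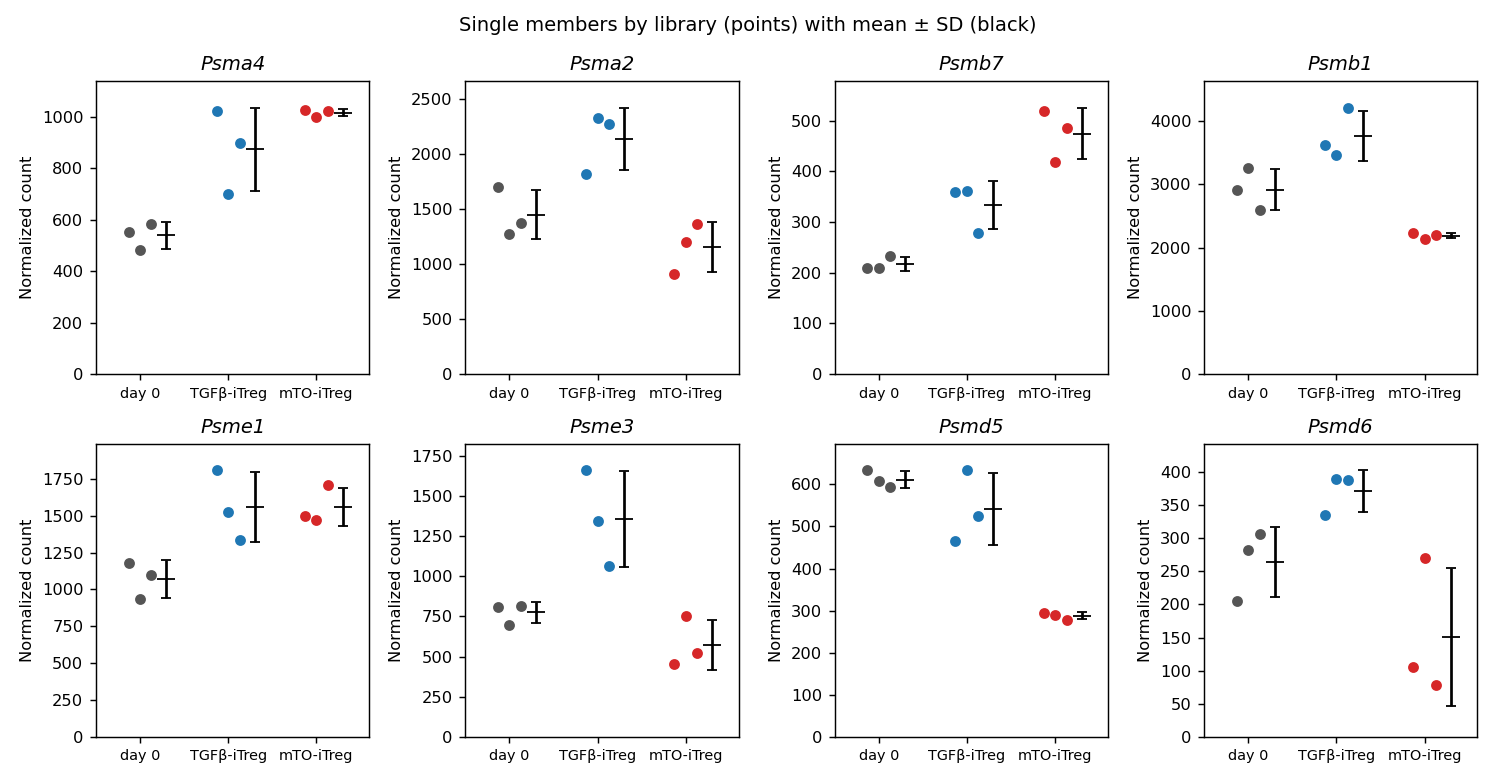
Normalized count of 8 members by group, with one point per library and the mean ± SD of 3 libraries in black; the axes start at 0. Psma4, Psmb7 and Psme1 lie above day 0 in both induced groups, Psma2, Psmb1 and Psme3 are highest in TGFβ-iTreg libraries, and Psmd5 and Psmd6 are lowest on average in mTO-iTreg libraries, where Psmd6 is at 105, 270.5 and 78.4.

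Ratios of 2 members within a library do not depend on how libraries are scaled. The pairs were chosen after their values were seen and are given with no test. The ratio of Psmb7 to Psmb1 was 0.0719, 0.0644 and 0.0894 at day 0, 0.0989, 0.105 and 0.066 in TGFβ-iTreg and 0.233, 0.195 and 0.221 in mTO-iTreg cells. Psma4 to Psma2 was 0.326, 0.379 and 0.425, then 0.563, 0.301 and 0.395, then 1.13, 0.836 and 0.753. In both, day 0 and TGFβ-iTreg overlapped and mTO-iTreg lay above both. Psme1 to Psme2, the 2 subunits of one activator, was 1.09, 0.813 and 1.08 at day 0, 1.22, 1.31 and 0.882 in TGFβ-iTreg and 2.14, 1.98 and 1.66 in mTO-iTreg cells. Psme3 to Psme1 was 0.302, 0.51 and 0.305 in mTO-iTreg cells, below its 0.685 to 0.749 at day 0 and 0.796 to 0.918 in TGFβ-iTreg cells. Psmd5 to Psmd2 fell without overlap across all groups, with means of 1.33, 0.829 and 0.437. Psmb7 to Psmb10, the constitutive over the inducible subunit of one position, was 0.494, 0.406 and 0.62, then 0.514, 0.808 and 0.482, then 1.33, 0.904 and 1.15. Psmb5 to Psmb8 went the other way, 0.225 to 0.339 at day 0 and 0.23 to 0.302 in TGFβ-iTreg against 0.12 to 0.173 in mTO-iTreg cells, and Psmb6 to Psmb9 overlapped in all groups (means 0.669, 0.732 and 0.71).

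**Figure D4:**
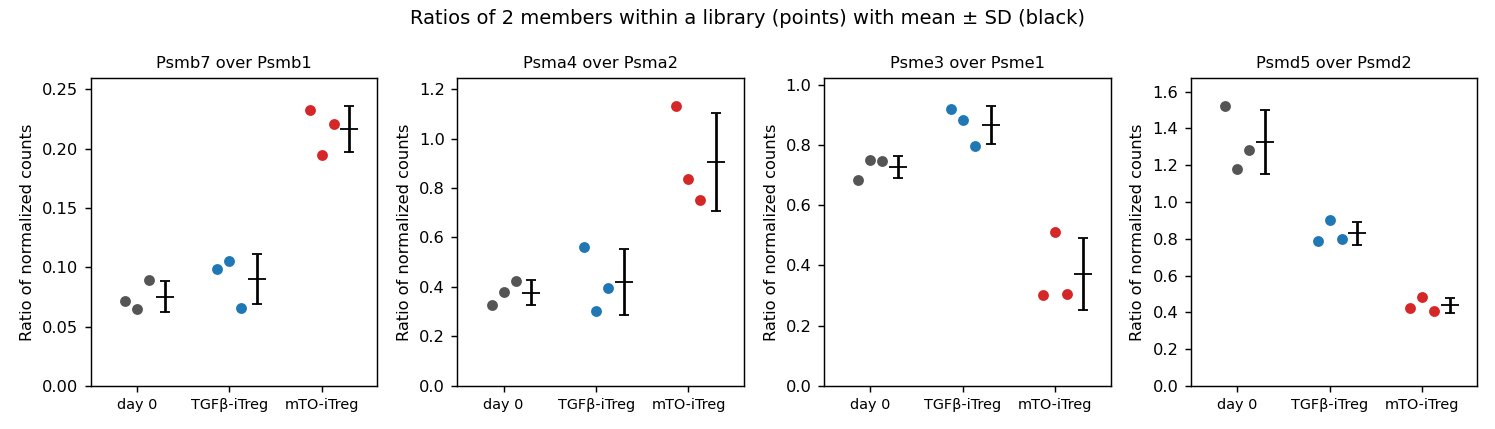
Ratio of the normalized counts of 2 members in the same library, with one point per library and the mean ± SD of 3 libraries in black; the axes start at 0. The first 2 ratios lie higher in all mTO-iTreg libraries (means 0.216 and 0.907) than in the other groups, and the last 2 lie lower (means 0.372 and 0.437).

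Genes that work with the proteasome were counted from lists of names, of which 40 of 47 were tested. Against day 0, 7 were higher and 2 lower in TGFβ-iTreg cells (18.6% of all tested rows were called in either direction) and 15 higher and 7 lower in mTO-iTreg cells (33.9%). Between the induced groups 6 were higher and 8 lower in mTO-iTreg cells (26.6%). Of 7 cap subunits and attached factors not named Psm, none was called in TGFβ-iTreg cells against day 0 (limma). An unadjusted p under 0.05 was found for 1 of them, beside 3500 of 10983 tested rows. Txnl1 and AI314180 were called higher in mTO-iTreg cells against day 0, the latter in 7 of 23 alternatives. Shfm1, a lid subunit, was at 1567, 1487 and 1609 in TGFβ-iTreg and at 887.3, 973.3 and 1155 in mTO-iTreg cells (log2 difference −0.64 ± 0.13, adjusted p = 0.0028). Pomp, the maturation factor of the core, was called in the same directions as Psmb1. It was at 912.3, 790.3 and 873.5 at day 0, at 1080, 1288 and 1125 in TGFβ-iTreg and at 620, 534.7 and 685.5 in mTO-iTreg cells, with no overlap (adjusted p = 0.044 higher, 0.015 lower and 0.00031 for the difference). These calls held in 10, 18 and 23 of 23 alternatives, where the adjusted p reached 0.16, 0.17 and 0.011.

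Of 9 tested regulators of proteasome genes, Stat3 and Mafg were higher and Nfe2l2 lower in TGFβ-iTreg cells than at day 0. In mTO-iTreg cells Nfe2l1, Stat3 and Mafg were higher and Ngly1 lower than at day 0. Nfe2l1, the factor that raises proteasome genes when proteasomes are inhibited, was at 119.3, 91.4 and 115 at day 0, at 115.6, 100.4 and 132.9 in TGFβ-iTreg and at 229.9, 222.7 and 217.2 in mTO-iTreg cells (log2 change against day 0 1.04 ± 0.23, adjusted p = 0.0030). Ngly1, the glycanase that Nfe2l1 needs to become active, went the other way, at 163.2, 121 and 163.5, then 142.7, 136.3 and 104.2, then 61.4, 57.1 and 69.8 (−1.23 ± 0.26, adjusted p = 0.0027). Nfe2l2 was at 410.5, 435.5 and 359.7 at day 0 and at 214, 132.2 and 208.5 in TGFβ-iTreg cells (−1.14 ± 0.23, adjusted p = 0.0045) and higher in mTO-iTreg than in TGFβ-iTreg cells (1.00 ± 0.23, adjusted p = 0.0066).

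Of 5 ubiquitin genes and activating enzymes tested, Uba1, the main ubiquitin-activating enzyme, was higher in both induced groups against day 0 (log2 changes 0.62 ± 0.12, adjusted p = 0.0024, and 0.81 ± 0.12, adjusted p = 0.00013). Of 7 shuttle and unfolding factors, Ubqln2 was lower in both induced groups against day 0, Vcp and Ufd1l were higher in mTO-iTreg cells against day 0, and Ubqln4 was higher in mTO-iTreg than in TGFβ-iTreg cells.

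Of 8 partners in class I presentation, Irf1 was among those higher in TGFβ-iTreg cells than at day 0 (log2 change 0.56 ± 0.13, adjusted p = 0.011). In mTO-iTreg cells Tap1, Tapbp, Nlrc5 and Irf1 were higher and Tap2, Erap1 and B2m lower than at day 0. The subunits of the peptide transporter were called in opposite directions. Tap1 was at 912.5, 622.6 and 672.4 in TGFβ-iTreg and 1609, 1293 and 1881 in mTO-iTreg cells (log2 difference 1.12 ± 0.18, adjusted p = 0.00060), and Tap2 was at 381.2, 318.1 and 367.1 and at 184.2, 168.1 and 151.5 (−1.08 ± 0.22, adjusted p = 0.0027).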

How the data were processed

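Libraries were made with a modified CEL-Seq method, a 3′ tag protocol, per the labels' protocols. Per the submitters' processing notes, alignment used BWA against mm10, and DESeq2 served for normalization. How strand, molecular identifiers and multi-mapped reads were treated is not given in the sources used here, nor are versions. The deposited values are normalized counts, that is, counts that the authors divided by a size factor per library. Multiplying back gave whole counts (within 0.1) for 100% of values, with totals of 2078223 to 9944952 per library.

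The main test was limma 3.58.1 (R 4.3.3) on log2(normalized count + 1), with 3 group means over all 9 libraries (6 residual degrees of freedom), empirical Bayes with a mean-variance trend, and Benjamini-Hochberg adjustment over the 10983 rows with at least 5 in at least 3 libraries; a call is an adjusted p under 0.05. Log2 changes are on that log2(value + 1) scale, and changes of low rows are understated. The script was tested on simulated data. Both comparisons with day 0 share the day 0 libraries. The unit was found to be normalized rather than raw counts, so limma-voom on the recovered counts served as a count-based alternative, added after the data were seen. Text names the called members with the largest changes of each set, and catalytic, ATPase, scaffold, chaperone and cap members whatever their result. Members and lists were chosen with earlier results of these data known. Gene positions are from GENCODE (GRCm38), and overlaps with other genes were taken from its exon positions over the whole gene. Copies were searched with BLAST+ 2.17.0 over the last 300 bases of transcripts at 95% identity over 100 bases. Some results of related genes are not reported here.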

Additional observations from a re-analysis of the deposited data

Results flagged for a closer look

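Psmb1, a structural beta subunit, was called higher in TGFβ-iTreg cells and lower in mTO-iTreg cells against the same day 0 libraries. The difference itself was tested: mTO-iTreg minus TGFβ-iTreg was −0.778 on the log2 scale (limma, adjusted p = 0.00033). All 3 mTO-iTreg libraries lay below, and all 3 TGFβ-iTreg libraries above, the day 0 libraries. Without 1 library, the 2 changes from day 0 were lost in some cases, as given above. Over all 23 alternatives the rise in TGFβ-iTreg cells held in 12 and the fall in mTO-iTreg cells in 17. The fall was lost also with equal totals, quantile normalization and scaling that left out mitochondrial genes and Rn45s. The difference between the induced groups was called under all 23 alternatives, with an adjusted p of at most 0.018. Library codes take another form in the mTO-iTreg group, so handling and co-culture cannot be told apart.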

How the results depend on the processing

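No change of a member that passed the threshold turned its direction under any alternative run. The 15 members higher in TGFβ-iTreg cells than at day 0 became 27 with all libraries scaled to equal totals. That scaling moved the median of all rows to 0.23 and the share of rows called higher to 16.4%. The 15 became 1 without the mean-variance trend (6.3% of rows called higher). They became 6 without the shallowest day 0 and TGFβ-iTreg libraries (5.88% of rows), a setting chosen after the data were seen. Leaving out 1 library gave 6 to 15, beside 6.3 to 9.84% of all rows. The count was 21 with scaling that left out mitochondrial genes and Rn45s, where the median of all rows was 0.114 and 12.6% were called higher. With limma-voom it was 10 (5.61% of all rows). In each, 0 members were lower. The 11 members higher in mTO-iTreg cells than at day 0 became 4 without the trend (17.2% of all rows called higher). Without 1 library they became 6 to 10 (14.8 to 19.7%). The 4 lower members became 1 with equal totals (10.4% of all rows called lower) and 1 without the trend (12.6%). They became 1 with the scaling that left out mitochondrial genes (12.1%) and 1 without the shallowest libraries (13%). They became 2 in a fit of 2 groups (13.2%), 2 with limma-voom (14.9%), and 1 to 4 without 1 library (12.3 to 14.8%). The member higher in mTO-iTreg than in TGFβ-iTreg cells, Psmb7, became 0 with no filter, TMM factors, equal totals, quantile normalization, a replicate block or no trend. It became 0 also without the shallowest libraries, and 0 to 1 without 1 library (limma), while its log2 difference stayed positive. In that comparison 19 of 45 members had an unadjusted p under 0.05 in either direction, beside 4245 of 10983 tested rows. The 13 lower members stayed within 1.5 times that count in all alternatives. Replicate numbers did not pair libraries: deviations of equally numbered libraries correlated between −0.05 and 0.06 across genes. With a replicate block 13, 0, 10, 3, 0 and 13 members were called in the order of comparisons given here (higher, then lower). With 3 libraries a group, smaller changes could be missed; 31 members had at least 100 counts in every library.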
